A study of Homo sapiens with 4 samples.

Results

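LYPLAL1 encodes a small serine hydrolase of the lysophospholipase-like family, whose best known relatives remove palmitate from proteins. The circular RNAs of this gene were followed in MDA-MB-468, a human triple-negative breast cancer line of the basal-like kind. Every row of the deposited table that named LYPLAL1 and was not called antisense was taken, which gave 39 of 211599 circles, 9 of them typed exon and 30 typed intron. A further 5 antisense rows held 5 counts in all and were left out. The gene was chosen by its summed circle counts, which were among the most raised with HNRNPL knockdown in these same libraries. That sum held the circles naming LYPLAL1 alone and left out those that also name other genes. Because of this choice, every knockdown value of LYPLAL1 below is a description without a test.

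All 4 libraries came from a radioresistant derivative of the line that had been given 50 Gy in total. The 2 control libraries (genotype WT) carried the hairpin shCtrl, and the 2 knockdown libraries carried a stably expressed hairpin against HNRNPL, a splicing regulator that binds RNA. The labels name 1 hairpin against HNRNPL, so an effect of HNRNPL loss and one of this hairpin cannot be told apart, and the knockdown rests on the labels, since 0 of the rows analysed here named HNRNPL. Total RNA was copied by Induro, a reverse transcriptase that can run around a circle repeatedly, then amplified with phi29 polymerase and read on Nanopore, to find circular RNAs that depend on HNRNPL. The labels call the libraries biological replicates.

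A circular RNA forms when the end of a downstream exon is joined back to the start of an upstream exon, a back splice. The circle keeps the exons between these points and has no free end, which makes it long-lived. The same upstream start can be joined to different downstream ends, so that 1 gene gives a family of circles. HNRNPL binds CA-rich RNA and is known to change both linear splicing and the formation of circles.

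The libraries held 472428 and 556578 counts in controls 1 and 2, and 282737 and 390547 in knockdowns 1 and 2. A library with 0 counts of a circle still allows up to 3, or 0.635 and 0.539 per 100000 in controls 1 and 2 and 1.06 and 0.768 in knockdowns 1 and 2. Control 1 stood apart from the other libraries before any comparison. It held 70.9% of its counts in exon-type circles, against 84.9% in control 2 and 85.7% and 85.6% in the knockdowns, and more of its counts in unspliced intron circles. The breast and stromal markers could be read only as circle counts. Of 8 basal-like markers 3 had counts, nearly all of them from EGFR, with a summed level of 25.2 and 9.34 per 100000 in the controls and 4.24 and 5.38 in knockdowns. KRT14, KRT17, CDH3, LAMB3 and ITGB4 were at 0. Of 4 luminal markers 3 had counts, at 5.72 and 0.898 per 100000 in the controls and 1.06 and 0.256 in knockdowns, while all 6 immune, fibroblast and endothelial markers were at 0. Both epithelial sums were thus lower in knockdown 2 than in either control, and their part in the results on LYPLAL1 was not tested.

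All LYPLAL1 circles lay on the plus strand of chromosome 1 between positions 219174352 and 219391114 (GRCh38.p14, positions as deposited), inside the RefSeq span of the gene, 219173878 to 219445496. They fell into a spliced and an unspliced class. The 22 spliced circles, made of more than 1 exon block, held 478 of the 505 LYPLAL1 counts. Of these, 20 had an AG before the start and a GT after the end at exactly the called positions, the letters of ordinary splice sites. The 17 unspliced circles were single stretches of 610 to 2913 nt. None of them had AG and GT at the exact positions, 7 had no count in any library, and the highest total was 5.

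The type given in the table does not separate these classes. Of the 30 circles typed intron, 43.3% were spliced, and these held 93.1% of the intron-type counts of the gene. Among all circles of that type in the series, 30.6% were spliced, with 41.9% of the intron-type counts. Spliced intron-type circles made up 72.5% of all LYPLAL1 counts over the 4 libraries. By library this was 47.6% and 31.9% in controls 1 and 2 and 78.6% and 84.9% in knockdowns 1 and 2. Among 2882 genes with at least 100 counts the median of the pooled share was 3.23%, and 28 genes had a higher one than LYPLAL1. Most LYPLAL1 counts came from the knockdowns, for which the gene was chosen, so nothing is read from this rank. All 4 spliced circles that ended at 219218712 and all 3 that ended at 219241308 were typed intron, whereas all 3 that ended at 219295151 were typed exon.

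The spliced circles shared a core. The block 219211492 to 219211752 (261 nt) was in 20 of the 22 and in 99.4% of their counts, and the block 219210532 to 219210647 (116 nt) in 93.9%. The next block downstream, 219218518 to 219218712 (195 nt), was in circles with 93.5% of the counts, and 219241199 to 219241308 (110 nt) in 69.2%. The long block 219294061 to 219295151 (1091 nt) was in 25.3%. All these shares pool the 4 libraries, and that of the long block differed between the groups. It was in circles with 22 of 32 and 51 of 68 spliced counts in controls 1 and 2. In knockdowns 1 and 2 it was in circles with 15 of 133 and 33 of 245. These values use the first structure listed for each circle, since the table gives no count per structure. Circles began at 8 different starts, and 8 of the 22 began at 219193082, the start with the most counts (370). The start 219193130 lies 48 nt further in, inside the same exon, and was used by 4 circles with 72 counts.

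Both named genes and downstream ends divided the circles in the same way. The 13 spliced circles that ended at or before 219241308 named LYPLAL1 alone, and the 9 that ended further downstream also named ENSG00000277007 and, in 8 of the 9, ENSG00000287676. A circle without any gene name lay on the same strand at 219232911 to 219234771. The end with the most counts over the 4 libraries was 219241308. It is thus downstream of a stretch to which the deposited annotation gave no gene, though within the RefSeq span of LYPLAL1. In controls 1 and 2 the end 219295151 had more counts, 12 and 45 against 6 and 11.

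Summed over all 39 circles, LYPLAL1 had 42 and 72 counts in controls 1 and 2 and 140 and 251 in knockdowns 1 and 2. This was 8.89 and 12.9 per 100000 in the controls and 49.5 and 64.3 in knockdowns, so that both knockdowns lay well above both controls. The means were 10.9 ± 2.86 and 56.9 ± 10.4 per 100000 (SD, n = 2). The fitted log2 fold change was 2.67 ± 0.41 (SE), in a fit of all host genes in which each gene named by a circle received its counts. More cells that make these circles and more circles per cell cannot be told apart in such bulk RNA.

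The size of that difference depended on which circles were summed. The 30 circles naming LYPLAL1 alone had 20 and 21 counts in the controls and 124 and 216 in knockdowns, or 4.00 ± 0.326 and 49.6 ± 8.10 per 100000 (SD, n = 2). Their log2 fold change was 3.94 ± 0.41 (SE). The median over all 5911 host genes tested was -0.27. Of these genes, 15.9% had both knockdowns above both controls. The 9 circles that also named other genes had 22 and 51 counts in the controls and 16 and 35 in knockdowns, which is 6.91 ± 3.19 and 7.31 ± 2.34 per 100000 (SD, n = 2). In this second set, which was outside the sum by which the gene was chosen, the groups overlapped.

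**Figure D1:**
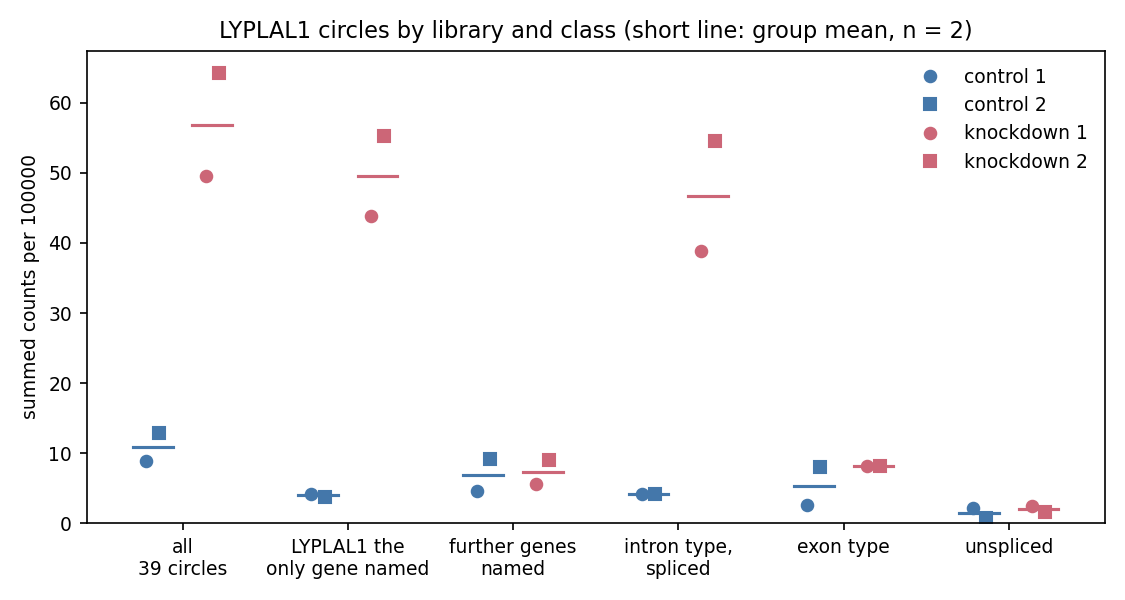
Summed counts per 100000 (y axis) of LYPLAL1 circles in each of the 4 libraries, for all 39 circles and for 5 classes of them (x axis), with a short line at each group mean (n = 2). The knockdown libraries reach 49.5 and 64.3 for all circles and lie far above the controls in spliced intron-type circles, while the groups overlap for circles naming further genes and for unspliced circles.

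Exon-type and intron-type circles differed in the same comparison. The intron-type circles had 6.35 and 4.85 per 100000 in the controls and 41.4 and 56.1 in knockdowns. The exon-type circles had 2.54 and 8.09 per 100000 in the controls and 8.13 and 8.19 in knockdowns, where control 2 was nearly as high as the knockdowns. The intron-type share of LYPLAL1 counts was 71.4% in control 1 (exact binomial 95% interval 55.4 to 84.3), 37.5% in control 2 (26.4 to 49.7), 83.6% in knockdown 1 (76.4 to 89.3) and 87.3% in knockdown 2 (82.5 to 91.1). The mean difference of 30.9 percentage points was close to the spread between the controls (54.5% ± 24.0, SD, n = 2). Among circles naming LYPLAL1 alone it was -9.52 points, because all control counts there were intron type. Intervals cover counting error only, and amplified copies are not independent molecules.

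The unspliced circles were low throughout, with 10 and 4 counts in the controls and 7 and 6 in knockdowns. Per 100000 this was 2.12 and 0.719 against 2.48 and 1.54, and the groups overlapped. The pooled ratio of knockdown to control was 1.42, with a counting interval from 0.614 to 3.26. For the spliced intron-type circles the pooled ratio was 11.5 (8.33 to 16.2).

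Of the 39 circles, 31 had a count and 9 had at least 10, of which 3 were exon type and 6 intron type. Among these 9, both knockdowns lay above both controls for 6 circles and below them for none. The share of all 21576 circles with at least 10 counts was 23.2% above and 22.9% below. Since LYPLAL1 was chosen for its rise, nothing is read from this count. Another 22 circles had between 1 and 9 counts, 70 in all. Counts in knockdowns alone were found for 14 circles, 10 of them in both knockdown libraries, and counts in the controls alone for 7, 1 of them in both controls. Of all 190152 circles with a count, 22.0% were seen in knockdowns alone and 9.97% in both knockdowns and no control, while 51.1% were seen in controls alone and 4.90% in both controls and no knockdown. Nothing is read from these counts either.

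The leading circle ran from 219193082 to 219241308 and was typed intron. Its first listed structure has 5 blocks and 852 nt, which is the length the table gives. It had 6 and 8 counts in the controls and 70 and 115 in knockdowns, or 1.27 and 1.44 against 24.8 and 29.4 per 100000. No other LYPLAL1 circle separated the groups with as many counts. The means were 1.35 ± 0.118 and 27.1 ± 3.31 per 100000 (SD, n = 2), and the log2 fold change was 4.27 ± 0.44 (SE), beside a median of -0.39 over all circles tested. The table lists 2 further structures for it. One of these includes the stretch 219199464 to 219200920, which covers the pseudogene RIMKLBP2 (219199852 to 219200906), so reads of that form could be shared with its parent gene.

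The second intron-type circle began at the same start and ended at 219218712, with 4 blocks and 742 nt in the first of its 2 listed structures. It had 1 and 5 counts in the controls and 16 and 44 in knockdowns. Its level was 0.212 and 0.898 per 100000 in the controls and 5.66 and 11.3 in knockdowns. On this linear scale, knockdown 2 was about as far from knockdown 1 as knockdown 1 was from control 2. On a log2 scale the knockdowns were closer to each other than to either control. The log2 fold change was 3.86 ± 0.71 (SE), and it was 3.44 without control 1, 4.95 without control 2, 4.32 without knockdown 1 and 3.24 without knockdown 2.

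The third intron-type circle used the inner start 219193130 with the end 219241308, for 804 nt. It had 0 and 3 counts in the controls and 10 and 17 in knockdowns. With so few control counts, the pooled ratio of 13.8 had a counting interval from 4.23 to 70.8, and all of those control counts came from control 2. The other 3 intron-type circles with at least 10 counts totalled between 12 and 21. Their fitted log2 fold changes ran from 0.99 to 2.50, and in 1 of the 3, which ended at 219391114, the groups overlapped. For that circle it was 1.41, and between -0.10 and 2.08 with each library left out. The circle from 219193130 to 219218712 had 2.50, or 3.40 without control 1 and 1.88 without control 2. The circle from 219193082 to 219309917 had 0.99, or 1.66 without control 1 and 0.47 without control 2.

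The leading exon-type circle had the same start and ran to 219295151. Its first listed structure contains the same 5 blocks as the first of the leading circle plus the 1091 nt block, 1943 nt in all. A second listed structure has 5 blocks and 1208 nt, without the blocks that end at 219218712 and 219241308. The circle had 6 and 30 counts in the controls and 6 and 11 in knockdowns, or 1.27 and 5.39 against 2.12 and 2.82 per 100000. Control 2 was the highest library and control 1 the lowest, with both knockdowns between them. The log2 fold change was -0.37 ± 0.69 (SE), close to the median of all circles, and 0.74 without control 2.

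The circle from the inner start to the same end (219193130 to 219295151, 1785 nt) also had overlapping groups. It had 3 and 14 counts in the controls and 2 and 5 in knockdowns, and its log2 fold change was -0.58 ± 0.93 (SE), or 0.45 without control 2. Here too the direction rested on control 2. The remaining exon-type circle with at least 10 counts ran from 219193082 to 219211752 in 3 blocks (564 nt). It had 0 counts in both controls and 7 in each knockdown, at least 3.64-fold higher against a floor of 3 counts in each control library.

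**Figure D2:**
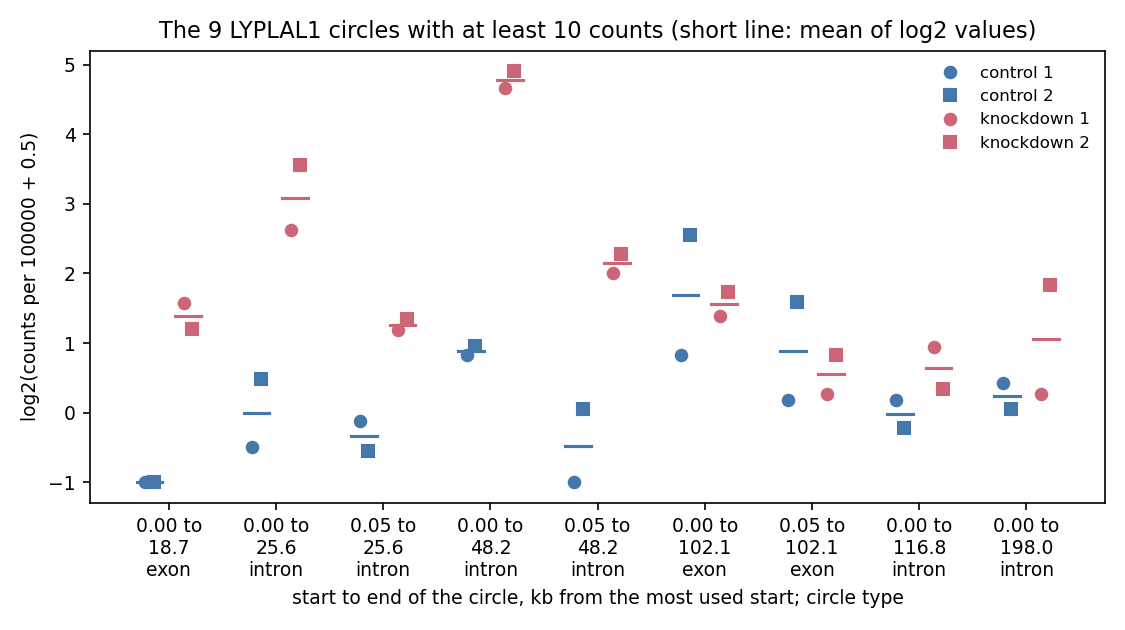
Level in log2(counts per 100000 + 0.5) (y axis) of the 9 LYPLAL1 circles with at least 10 counts, ordered by their end and labelled by start and end in kb from the most used start and by type (x axis). Each point is a library and short lines are group means. The knockdowns lie above the controls for every circle ending at 48.2 kb or nearer, and lie between the controls for both circles ending at 102.1 kb.

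Grouping the spliced circles by their downstream end brought these patterns together. This grouping was chosen after the values had been seen. The cut used below, 219241308, is the end with the most counts in each knockdown but not in either control. The 4 circles that ended at 219211752 had 0 counts in both controls and 13 and 15 in knockdowns 1 and 2, at least 7.19-fold higher against the floor. The 4 that ended at 219218712 had 0.847 and 1.08 per 100000 in the controls and 7.43 and 14.9 in knockdowns. The 3 that ended at 219241308 had 1.27 and 1.98 per 100000 in the controls and 28.6 and 34.8 in knockdowns. At each of these nearer ends, both knockdowns were above both controls.

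Further downstream the separation was smaller or absent. The 3 circles that ended at 219295151 had 2.54 and 8.09 per 100000 in the controls and 2.83 and 4.10 in knockdowns. The 3 that ended at 219391114 had 1.48 and 0.539 per 100000 in the controls and 1.06 and 3.33 in knockdowns, and those at the remaining far ends had 12 counts or fewer in all. In both of the named far ends the groups overlapped.

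Circles ending at or before 219241308, which is 48.2 kb from the most used start, had 10 and 17 counts in the controls and 117 and 210 in knockdowns, a pooled ratio of 18.5 (counting interval 12.5 to 28.5). For the circles ending beyond it the ratio was 1.07 (0.732 to 1.55), which pooled unlike ends. It was 0.644 (0.382 to 1.05) at 219295151, the far end with the most counts, and 2.45 (1.04 to 6.03) at 219391114. At 219309917 it was 2.14 (0.585 to 8.55), and at 219311435, with 4 counts, 4.59 (0.368 to 241). The nearer ends took 31.3% of spliced LYPLAL1 counts in control 1 (exact binomial 95% interval 16.1 to 50.0) and 25.0% in control 2 (15.3 to 37.0). In knockdowns 1 and 2 they took 88.0% (81.2 to 93.0) and 85.7% (80.7 to 89.8). The group means were 28.1% ± 4.42 and 86.8% ± 1.60 (SD, n = 2), and the difference was between 55.6 and 61.8 percentage points with any 1 library left out. The circles with nearer ends were in the sum by which the gene was chosen for its rise. Those with farther ends name other genes too and were outside it, so this contrast is given as a description only.

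The end at 219241308 alone went from 18.8% and 16.2% of spliced counts in the controls to 60.9% and 55.5% in knockdowns. The end at 219295151 went from 37.5% and 66.2% to 6.02% and 6.53%. Since shares sum to a whole, these changes are not independent of each other or of those at the other ends. The level of circles with the far end 219295151 overlapped between the groups, as given above.

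**Figure D3:**
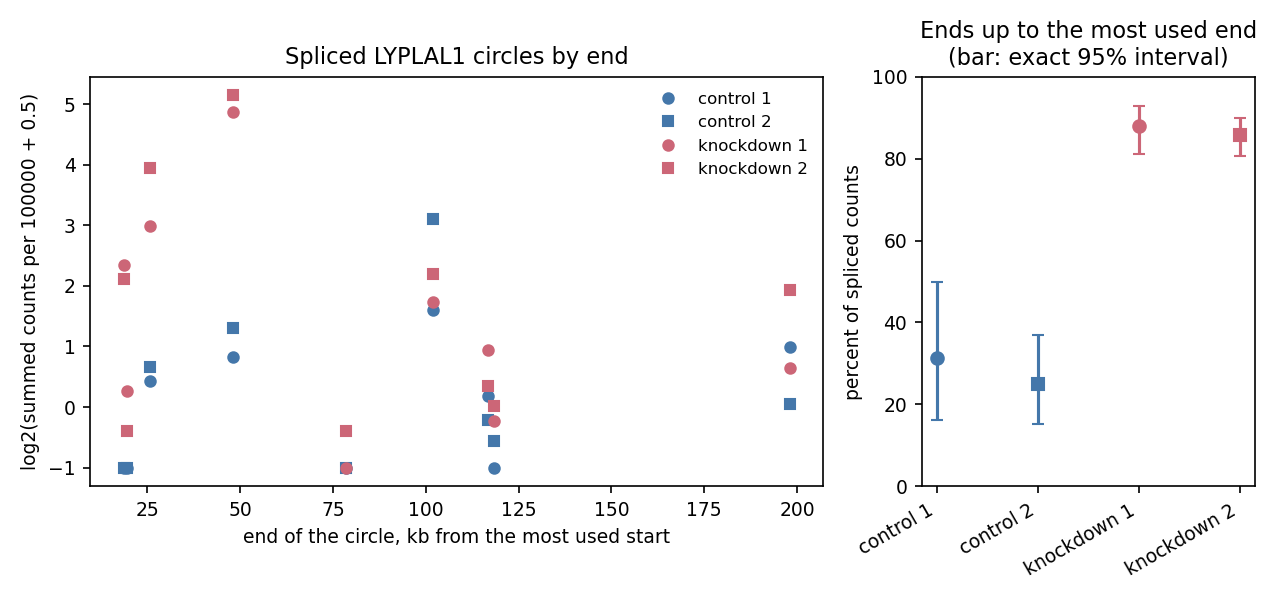
Left, summed level in log2(counts per 100000 + 0.5) (y axis) of spliced LYPLAL1 circles against the distance of their end from the most used start in kb (x axis), 1 point per library and end. Right, the percent of spliced LYPLAL1 counts in circles ending up to 48.2 kb, by library, with exact binomial 95% intervals. The share is 31.3% and 25.0% in controls and 88.0% and 85.7% in knockdowns.

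The upstream start varied less. The outer start 219193082 had 4.23 and 8.80 per 100000 in the controls and 37.5 and 49.9 in knockdowns. The inner start 219193130 had 1.06 and 3.23 per 100000 in the controls and 6.37 and 7.94 in knockdowns. Both starts were thus higher in both knockdowns. The inner start took 15.6% and 26.5% of spliced counts in controls 1 and 2 and 13.5% and 12.7% in knockdowns 1 and 2. The interval of control 1 (5.28 to 32.8) held the values of all 3 other libraries, but that of control 2 (16.5 to 38.6) held none of them. The share also differed by end. Of the pooled counts of the inner and outer starts, the inner start took 13.1% at the end 219241308, 19.5% at 219218712 and 31.2% at 219295151.

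The 1091 nt block at 219294061 to 219295151 was also found as a circle of its own, without LYPLAL1 exons, under the gene name ENSG00000287676. It was looked at after its values had been seen, because it shares an end with the LYPLAL1 circles described above. It had 13 and 8 counts in the controls and 9 and 14 in knockdowns, or 2.75 and 1.44 against 3.18 and 3.58 per 100000. Both knockdowns were thus above both controls. The estimate of the log2 fold change was 0.61 ± 0.64 (SE), and edgeR's quasi-likelihood test over all circles gave 0.651 as the adjusted p. That fit called 0 of all circles at the 0.05 threshold (0% of those tested), with 2895 at an unadjusted p under 0.05, and DESeq2 called 1052.

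The neighbours of LYPLAL1 on chromosome 1 came next. Of 15 host genes with circles within 2.5 Mb, 10 had enough counts to test. None passed an adjusted p of 0.05 in edgeR. DESeq2 also called 0 of the 10, though its share over all host genes is not given here. Over all host genes edgeR called 1.47% higher and 0.0338% lower. At an unadjusted p under 0.05, 2 of the 10 were lower and 0 higher, beside 6.89% lower and 8.12% higher over all host genes. MTARC2 had the smallest adjusted p of the 10 in edgeR, 0.0998. Its level was 5.93 and 5.93 per 100000 in the controls and 0.707 and 0.512 in knockdowns, a log2 fold change of -2.94 ± 0.75 (SE). The median of the 10 log2 fold changes was -0.58, against -0.27 in the other host genes, and 2 of the 10 were above 0. TGFB2, the nearest tested gene upstream, which encodes a TGF-beta ligand, had 11.6 ± 2.17 per 100000 in the controls and 10.4 ± 3.73 in knockdowns (SD, n = 2). EPRS1, the nearest beyond the LYPLAL1 circles and a glutamyl-prolyl-tRNA synthetase, had 15.3 ± 9.19 and 9.03 ± 0.266 per 100000 (SD, n = 2). The adjusted p in edgeR was 0.863 for TGFB2 and 0.712 for EPRS1. ENSG00000287676, whose circles lie among those of LYPLAL1, had a log2 fold change of 0.92 ± 0.61 (SE), for which edgeR gave 0.491 as the adjusted p.

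These counts of neighbours changed when a control was left out, as did those of all genes. Such a fit has 1 control library, assumed to vary like the 2 knockdowns, which differed less from each other (mean chi-square per circle 2.28) than the controls did (15.2). Without control 1, 3 neighbours passed, with RRP15 higher and IARS2 and MTARC2 lower, while 12.4% of all host genes were called higher and 9.78% lower. Without control 2, EPRS1 and MTARC2 passed, both lower, while 18.0% of all host genes were called higher and 17.9% lower. Nothing particular to the neighbours is read from these counts.

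The palmitoylation cycle was read as the pathway of LYPLAL1's relatives. In this cycle, ZDHHC acyltransferases attach palmitate to cysteines of proteins, which ties them to membranes, and thioesterases such as LYPLA1, PPT1 and the ABHD17 enzymes remove it. Of 32 listed genes other than LYPLAL1, 19 had circle counts and 15 could be tested. None passed an adjusted p of 0.05 in edgeR, with a smallest adjusted p of 0.326. DESeq2 also called 0 of the 15, though its share over all host genes is not given here. At an unadjusted p under 0.05, 1 of the 15 was lower and 0 were higher, beside the 6.89% and 8.12% of all host genes, so the count of lower genes was near that background. The median of the 15 log2 fold changes was -0.34, against -0.27 in the other host genes, and 7 of 15 were above 0.

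Among the removing enzymes, ABHD17B, which acts on membrane-bound Ras and synaptic proteins, had 40.6 and 97.0 per 100000 in the controls and 31.8 and 27.9 in knockdowns. Both knockdowns were below both controls, but the controls lay further apart from each other than control 1 from the knockdowns, and the adjusted p in edgeR was 0.420. PPT1, the lysosomal thioesterase, had 14.8 and 8.26 per 100000 in the controls and 4.60 and 4.35 in knockdowns, a log2 fold change of -1.01 ± 0.45 (SE) for which edgeR gave 0.326 as the adjusted p. LYPLA1, the closest relative of LYPLAL1 in the list and named here for that reason, had 11.4 and 5.93 per 100000 in the controls and 5.66 and 8.45 in knockdowns. Its groups overlapped, and edgeR estimated 0.07 ± 0.46 (SE) on the log2 scale, adjusted p = 0.961.

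Among the attaching enzymes, ZDHHC21 had 34.1 and 40.2 per 100000 in the controls and 37.1 and 35.1 in knockdowns (edgeR, adjusted p = 0.801). ZDHHC20 had 14.4 and 27.1 per 100000 in the controls and 27.9 and 22.3 in knockdowns (edgeR, adjusted p = 0.598). For both, the groups overlapped. In the same fits with 1 control library, 1 gene of the list passed without control 1 (ABHD17B, lower) and 4 without control 2 (PPT1 lower, ZDHHC17, ZDHHC20 and ZDHHC21 higher). Beside the shares of all host genes called in those fits, given above for the neighbours, nothing particular to the list is read from these counts.

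**Figure D4:**
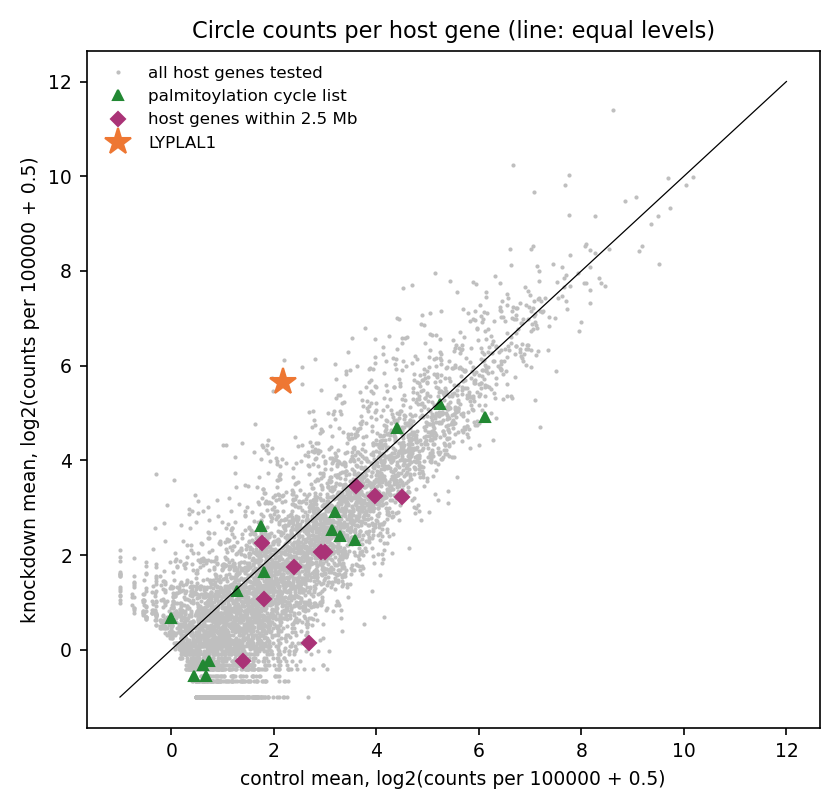
Mean circle counts of each host gene in controls (x axis) and knockdowns (y axis), both as log2(counts per 100000 + 0.5), for the 5911 host genes tested, with the 15 tested genes of the palmitoylation list, the 10 tested neighbours and LYPLAL1 marked. LYPLAL1, summed over circles naming it alone, goes from 4.00 to 49.6 per 100000, while none of the marked list genes or neighbours passed the test.

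The host genes whose circle counts were most like those of LYPLAL1 over the 4 libraries were found by Euclidean distance of log2(counts per 100000 + 0.5), with circles naming 1 gene. In order these were SGO2 (distance 0.491), SPAG16 (0.797), KIFAP3 (0.808), VPS50 (1.07) and TEX9 (1.24). SGO2, a protector of centromeric cohesion, had 4.23 and 2.70 per 100000 in the controls and 38.9 and 48.4 in knockdowns. On the same scale LYPLAL1 had 4.23 and 3.77 in controls and 43.9 and 55.3 in knockdowns. With 4 libraries, such a match describes a level in each group and little more.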

How the data were processed

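The authors deposited raw counts per circular RNA, 1 row per back-splice position, whole numbers in the deposited file, whose annotation column names CIRI-long. The submitters' processing notes name GRCh38.p14 and DESeq2. Versions, aligner and filters are not given in the sources used here. A second deposited table holds the same counts scaled to 100000 per library and was not used. Levels per 100000 were computed from the counts. Labels' titles gave the groups. The members and lists were chosen with earlier results of these data known.

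Circles, and host genes (sums over circles that name 1 gene and are not antisense), with at least 10 counts were fitted with edgeR 4.0.16 in R 4.3.3 (TMM, glmQLFit with default options, quasi-likelihood test, Benjamini-Hochberg adjustment over all features, threshold 0.05), after a test on simulated data. Standard errors came from the F statistic. No p is given for LYPLAL1. Alternatives used DESeq2 1.42.0, other scalings and filters, other gene assignments and libraries left out. Pooled ratios of counts carry exact conditional 95% intervals, for counting error only.

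Genes and circles were named by rule: at most the 8 exon and 3 intron circles with the most counts among those with at least 10, the 4 list genes with the most counts, list genes or neighbours past the threshold, the nearest tested neighbours, and the 5 host genes nearest LYPLAL1.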

Additional observations from a re-analysis of the deposited data

How the results depend on the processing

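For circles naming LYPLAL1 alone, the log2 fold change was 3.94, and 3.55 with library-size scaling, which moved the median of all host genes from -0.27 to -0.67. It was 2.67 when every named gene received the counts, and 7.40 with exon circles only, where both controls were at 0 (at least 7.79-fold against the floor of 3 counts). It lay between 3.74 and 4.14 with each library left out. Of the tested LYPLAL1 circles, 7 of 9 had a log2 fold change above 0. It was 22 of 31 with no count filter and 2 of 3 with at least 40 counts, where other numbers of circles are tested, and between 6 and 9 of 9 with each library left out. The intron-type share differed by 30.9 points, by -9.52 among circles naming LYPLAL1 alone, and by 13.98 to 47.9 with each library left out. For single circles, the sign turned without control 2 at 219193082 to 219295151 (0.74; range over libraries left out from -0.89) and 219193130 to 219295151 (0.45; from -1.12), and without knockdown 2 at 219193082 to 219391114 (-0.10; up to 2.08). The count of called palmitoylation genes was between 0 and 4 with each library left out, and that of neighbours between 0 and 3; without a control, 1 library stands for that group and many more of all host genes are called. For neighbours it was also 1 of 15 tested with no count filter and 1 of 10 with a replicate block (MTARC2, lower, in both). In a window of 5 Mb it was 1 of 28 (WDR26, higher), beside 1.47% of all host genes called higher. The shares of all host genes called with no count filter or with a block are not given here, so nothing is read from these counts. Beyond fewer or more features or libraries entering a fit, the cause was not tested.

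Replicate numbers are shared by the groups, but no label says that they pair cultures, and over 4944 circles the deviations of libraries with 1 number correlated at 0.0706. With a replicate block the log2 fold change of LYPLAL1 was 3.93, 7 of 9 circles were above 0, and 0 palmitoylation genes were called. Few counts limit most circles here: 22 of 31 detected circles had under 10.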
